A study of Homo sapiens with 18 samples.

Results

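The genes of the G1/S transition and of DNA replication were followed in A549 cells exposed to silica nanoparticles (NPs). The list held 44 genes, and a gene was counted as measured when at least 1 probe named for it on the array passed the filter on dim spots. All 44 were measured, by 59 of the 61 probes that carry their names, among 28665 probes kept of 41000 and 21028 gene names in all. A549 is an established line from a human lung adenocarcinoma, and all cells here were this 1 line, grown as a monolayer. Ludox NPs are colloidal amorphous silica. Cells were exposed for 2 h without serum to SM30 NPs (9 nm of diameter) or AS30 NPs (18 nm of diameter) and then recovered with serum, for 3 h after SM30 and for 3 h or 22 h after AS30. Each of these 3 exposures had a control group of its own, which passed through the same steps without NPs, so the 2 h without serum and the return of serum were common to all 6 groups. Every group had 3 biological replicates, A, B and C, with 1 one-colour Agilent array each, 18 arrays in all.

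A cell that passes from G1 into S phase first marks its origins: ORC, CDC6 and CDT1 load the MCM helicase, geminin (GMNN) blocks a second loading, and the CDC7-DBF4 kinase together with cyclin-dependent kinases fires the origin. Primase and the replicative polymerases then copy the strands behind the helicase, on the PCNA clamp that the RFC complex loads, with RPA on the single strands and FEN1 and LIG1 joining the Okazaki fragments. Most of these genes, together with the enzymes of deoxynucleotide supply, are transcribed under the E2F factors, which RB holds back until cyclin D and cyclin E kinases phosphorylate it, and the kinase inhibitor p21 (CDKN1A) acts against that step. In RNA from whole cultures, fewer cells in S phase and less of these RNAs per cell cannot be told apart.

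The values are log2 signals after quantile normalization over the 18 arrays, on which 1 unit is a doubling. The signal of a probe also depends on its sequence, so levels were compared only within a gene. The mean log2 signal of the members ran from 5.50 to 16.7 with a median of 11.97, and 42 of the 44 were well above background on all 18 arrays, the exceptions being POLE with 17 arrays and CCNE2 with 11. Over the whole array 51.9% to 72.4% of the spots were well above background and no spot was saturated. Marker genes used to check the labelled line were scored by their best probe. By that score 5 of 5 epithelial genes were well above background on all 18 arrays, as were 3 of 4 alveolar type II genes, 2 of 5 blood and immune genes (CD14 and CD3E), 1 of 5 fibroblast genes (COL1A1) and 0 of 3 endothelial genes. Further probes of these genes could be dimmer, above background on 0 arrays for SFTPA1, 9 for NAPSA, 13 for SFTPC and for 1 KRT18 probe, and 5 for CD3E. The arrays lay on 5 slides. The SM30 array A shared a slide with the 3 SM30 controls, while SM30 arrays B and C lay on another, and SM30 control A was scanned apart from the rest of its slide. For AS30 at 3 h, treated and control arrays were on separate slides.

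After SM30 NPs most of the replication genes were lower, each by a modest amount. The mean log2 ratio of treated over control cells lay below 0 for 40 of the 44 genes, with a median of -0.39, a change of -23.5%. The median over the members was -0.35 in pair A, -0.32 in B and -0.45 in C (SD 0.067, n = 3), beside -0.065, 0.0072 and -0.079 over all probes. The ratio was below 0 in each of the 3 pairs for 34 genes. Of the 42 genes measured on all 6 arrays, 32 (76.2%) had every treated array below every control array, against 23.8% of all probes. Adjusted p-values throughout are those of limma after Benjamini-Hochberg adjustment over all probes. At a threshold of 0.05 on them, 8 genes were called lower, where 3.13% of all probes were called lower, and 0 of the 44 were called higher, where 4.35% of all probes were. Without adjustment 22 genes were lower at p under 0.05 and 0 were higher, against 13.3% and 11.8% of all probes.

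After AS30 NPs most of the genes were lower at 3 h, and fewer were clearly so at 22 h. At 3 h 42 of the 44 ratios lay below 0, with a median of -0.43 (-25.8%). There 4 genes were called lower, where 1.01% of all probes were, with 0 called higher against 1.5% of all probes. Limma gave 27 members lower and 0 higher at an unadjusted p under 0.05. Of all probes 11.2% were lower at that level, and 6964 of 28596 passed it in either direction. The pairs differed more than after SM30, with medians of -0.40, -0.68 and -0.18 in A, B and C (SD 0.25, n = 3). For 22 of the 44 genes (50%) every treated array lay below every control array, against 10.6% of all probes. At 22 h 40 of the 44 ratios lay below 0 and the median was -0.22 (-14.0%), with pair medians of -0.40, -0.0052 and -0.25 (SD 0.20, n = 3). In the B pair the members were thus near 0 as a group. No gene was called at 22 h, where 1.04% of all probes were called lower and 2.54% higher, and limma gave 9 members lower and 1 higher at an unadjusted p under 0.05, against 10.1% and 12.8% of all probes. Treated and control arrays did not overlap for 9 genes that were lower (20.5%, against 11.1% of all probes) and for 1 that was higher, CCNE1, against 12.8% of all probes. The 9 were CDC7, E2F8, FEN1, MCM10, MCM4, MCM7, POLE, RFC4 and TYMS.

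**Figure D1:**
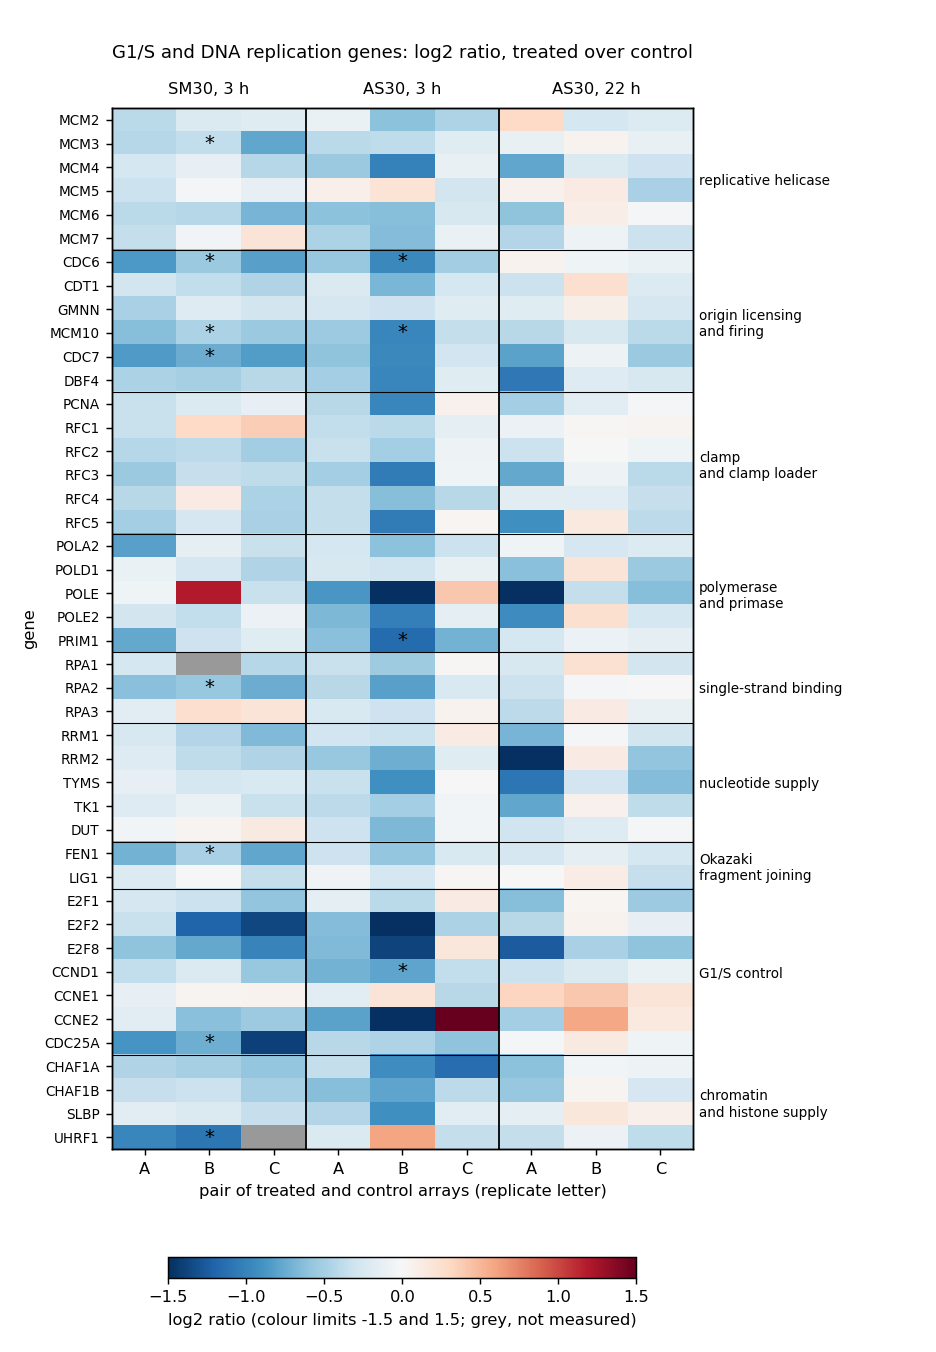
Log2 ratios of treated over same-letter control cells for the 44 genes (rows, grouped by role) in the pairs A, B and C of each exposure (columns), with blue below 0, red above 0, grey not measured and an asterisk over the 3 pairs of a gene called lower. Blue fills most cells after SM30 and in pairs A and B of AS30 at 3 h, and the B pair at 22 h is nearly white.

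The median over all probes was -0.054 after SM30, 0.013 after AS30 at 3 h and -0.0047 at 22 h, and over the 4467 probes with a signal at or above the median of the members it was -0.031, -0.025 and -0.020. The group shift was of the same sign within slides where both groups were present. SM30 array A was lower than the mean of the 3 controls on its slide for 43 of the 44 genes, with a median of -0.41, and the 3 AS30 arrays at 22 h were lower than control C on their slide for 35, with a median of -0.17. For AS30 at 3 h no slide held both groups. A fit with slide as a fixed block rests there on the 22 h controls that lay on the same slides. It gave a median of -0.24, with 38 of 44 genes below 0. That fit called 0 members in any of the 3 exposures. Over all probes it called 333 of 28598 after SM30, 52 of 25136 after AS30 at 3 h and 29 of 27811 at 22 h.

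**Figure D2:**
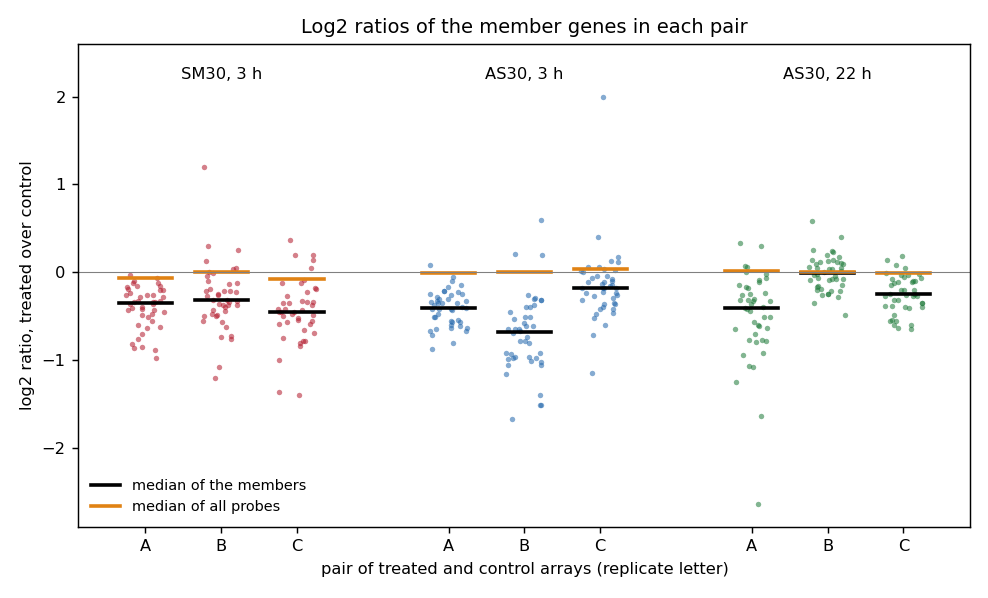
Log2 ratio of every member gene (points) in each pair of treated and control arrays, with the median of the members (black bar) and of all probes (orange bar). The black bars lie between -0.68 and -0.0052, all below 0, while the orange bars lie between -0.079 and 0.038.

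The genes that load and fire origins were lower in every case at 3 h. All 6 had a ratio below 0 after both NPs, and 3 were called after SM30 and 2 after AS30. CDC6, which brings the helicase to the origin, read 12.16, 12.22 and 12.36 in the SM30 controls A, B and C and 11.30, 11.66 and 11.55 in the treated arrays, so that all treated arrays lay well under all controls. The mean log2 ratio was -0.74 (SE 0.13, adjusted p = 0.0128), or 1.67-fold lower. After AS30 at 3 h the CDC6 signal was 11.56, 10.98 and 11.53 against 12.12, 11.95 and 12.05 in the controls, a ratio of -0.68 (SE 0.13, adjusted p = 0.0362). At 22 h it was 12.18, 12.23 and 12.08 against 12.12, 12.30 and 12.18, with overlapping groups and a ratio of -0.03. MCM10, which joins the helicase as the origin fires, was the other gene called after both NPs. It read 10.18, 10.36 and 10.32 after SM30 against 10.81, 10.84 and 10.87 and 10.37, 10.06 and 10.47 after AS30 at 3 h against 10.91, 11.04 and 10.83, with the groups apart in both. Its SM30 ratios were -0.64, -0.48 and -0.55 (mean -0.56, SE 0.13, adjusted p = 0.0414), and its AS30 ratios at 3 h were -0.54, -0.98 and -0.36 (mean -0.63, SE 0.13, adjusted p = 0.0499), the last of these just inside the threshold. The second MCM10 probe was called after SM30 at -1.10 and not after AS30, at -0.62 (adjusted p = 0.090). At 22 h all 3 treated arrays still lay below all controls, with ratios of -0.41, -0.24 and -0.40.

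CDC7, the kinase that phosphorylates the loaded helicase, fell by 0.81 on the log2 scale after SM30 (SE 0.17, adjusted p = 0.0267), from 9.68, 9.79 and 9.81 in the controls to 8.83, 9.05 and 8.97. Its ratios were -0.60, -0.97 and -0.29 after AS30 at 3 h and -0.80, -0.07 and -0.55 at 22 h, lower in all 6 pairs without a call (adjusted p = 0.085 and 0.14). DBF4, its regulatory subunit, had ratios of -0.47, -0.50 and -0.41 after SM30 and -0.51, -0.98 and -0.18 after AS30 at 3 h, also without a call. CDT1, the second loading factor, read 12.95, 13.04 and 12.99 after SM30 against 13.23, 13.41 and 13.44, a mean ratio of -0.37 (SE 0.15, adjusted p = 0.16), and its ratios were -0.21, -0.69 and -0.26 after AS30 at 3 h and -0.32, 0.25 and -0.21 at 22 h. GMNN, the inhibitor of CDT1, had the ratio nearest to 0 of the 6 after both NPs at 3 h, with signals of 12.89, 13.20 and 13.18 against 13.38, 13.39 and 13.45 after SM30, a ratio of -0.32 (SE 0.11, adjusted p = 0.13). The AS30 ratios of GMNN were -0.25, -0.31 and -0.18 at 3 h and -0.18, 0.09 and -0.25 at 22 h. Arrays of the treated and control groups did not overlap for any of the 6 genes after SM30 or after AS30 at 3 h.

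**Figure D3:**
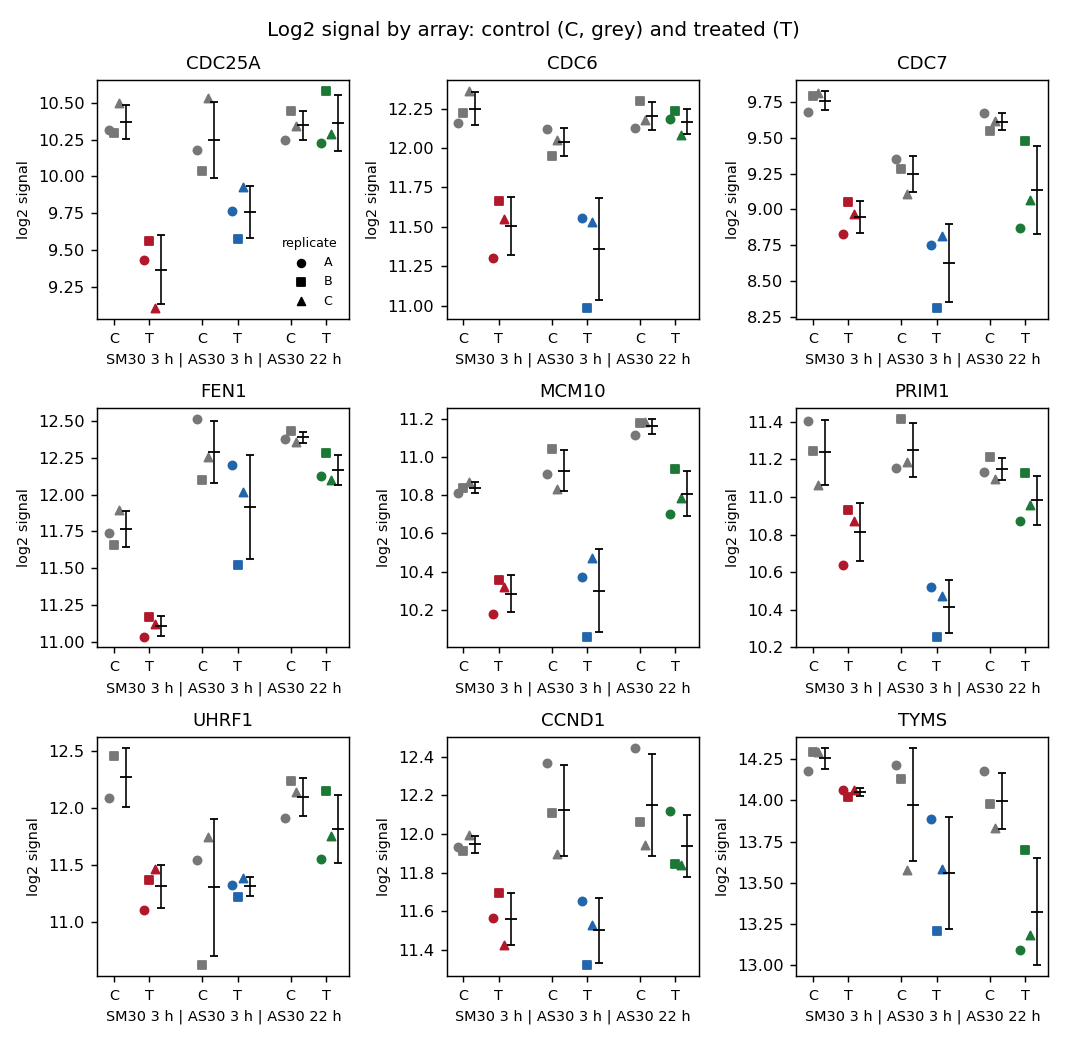
Log2 signal on each array (circle A, square B, triangle C) for 9 member genes in the control (C, grey) and treated (T, coloured) groups of the 3 exposures, with the mean and SD of each group beside the points. For CDC6 and MCM10 the treated arrays lie below all their controls at 3 h after both NPs, and for CDC6 the groups overlap at 22 h.

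Of the 6 subunits of the replicative helicase, MCM3 was the only one called. It read 14.37, 14.41 and 14.69 in the SM30 controls and 13.93, 14.05 and 13.90 in the treated arrays, a ratio of -0.53 (SE 0.12, adjusted p = 0.0351). MCM6 was lower by a similar amount, with ratios of -0.40, -0.43 and -0.70 after SM30 (adjusted p = 0.091) and -0.61, -0.64 and -0.24 after AS30 at 3 h (adjusted p = 0.12), and was not called. MCM4 had mean ratios of -0.27, -0.56 and -0.44 after SM30, after AS30 at 3 h and at 22 h, with all treated arrays below all controls each time. For MCM2 the signal was 11.89, 12.18 and 12.06 after SM30 against 12.29, 12.39 and 12.24 (mean -0.27, SE 0.15, adjusted p = 0.31). Its AS30 ratios were -0.10, -0.61 and -0.47 at 3 h and 0.30, -0.26 and -0.21 at 22 h. MCM5 had ratios of 0.08, 0.21 and -0.27 after AS30 at 3 h and a mean of 0.00, the nearest to 0 of the 6, a difference between subunits that was not tested. After SM30 it read 12.28, 12.51 and 12.45 against 12.60, 12.52 and 12.57, a ratio of -0.16 (SE 0.16, adjusted p = 0.58), and at 22 h its ratios were 0.07, 0.12 and -0.49. MCM7, with mean ratios of -0.07, -0.41 and -0.28, overlapped its controls after SM30. The subunits of this 1 complex thus spanned -0.53 to -0.07 after SM30 and -0.56 to 0.00 after AS30 at 3 h.

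Among the G1/S regulators, the phosphatase CDC25A, which removes the inhibitory phosphates of cyclin-dependent kinases, had the lowest adjusted p of any member after SM30. It read 10.32, 10.29 and 10.499 in the controls and 9.43, 9.56 and 9.10 after SM30, a ratio of -1.004 (SE 0.14, adjusted p = 0.0068), or 2.01-fold lower. Its second, dimmer probe gave -0.96 and was not called (adjusted p = 0.16). After AS30 at 3 h CDC25A read 9.76, 9.58 and 9.93 against 10.18, 10.03 and 10.54, with all treated arrays below all controls. The ratio was -0.49 (SE 0.14, adjusted p = 0.093). At 22 h the ratios were -0.02, 0.14 and -0.06, around 0, but the second probe gave 0.67 (adjusted p = 0.33). CCND1, cyclin D1, was called after AS30 at 3 h. The signal was 11.65, 11.32 and 11.53 against 12.37, 12.11 and 11.89, a ratio of -0.62 (SE 0.13, adjusted p = 0.0453). The 3 probes of CCND1 disagreed there, since a second was called at -0.80 and the third gave -0.16 (adjusted p = 0.70). After SM30 CCND1 read 11.56, 11.70 and 11.43 against 11.93, 11.91 and 11.996 (mean -0.38, SE 0.13, adjusted p = 0.10), and at 22 h its ratios were -0.33, -0.22 and -0.10, where the third probe gave 0.25.

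CCNE1, cyclin E1, had a mean ratio near 0 after SM30, where DUT, RFC1, RPA3 and POLE had means above 0. Its ratios were -0.12, 0.04 and 0.05 after SM30 and -0.16, 0.19 and -0.42 after AS30 at 3 h, with means of -0.01 and -0.13. At 22 h it read 13.78, 13.78 and 13.82 against 13.45, 13.38 and 13.63, higher in all 3 pairs and with groups that did not overlap, at 0.31 (SE 0.13, adjusted p = 0.21). CCNE2 was dim. After SM30 it read 6.48, 6.39 and 6.42 against 6.65, 7.01 and 6.96, a ratio of -0.45 (SE 0.57, adjusted p = 0.67). The error is estimated over all 9 pairs. At 3 h after AS30 the CCNE2 ratios ran from -1.67 to 2.00, with 1 treated and 2 control arrays well above background, and at 22 h 0 of the 3 controls were, so no size is given there. E2F1, the activator of this programme, read 11.58, 11.66 and 11.67 after SM30 against 11.83, 11.99 and 12.26, below in every array, at -0.39 (SE 0.16, adjusted p = 0.18). Its AS30 ratios were -0.15, -0.40 and 0.12 at 3 h and -0.64, 0.03 and -0.55 at 22 h. E2F2 and E2F8 had lower mean ratios than E2F1 in both exposures at 3 h, at -0.97 and -0.79 after SM30 and -0.88 and -0.63 after AS30, and neither was called. The E2F2 value after SM30 came close (adjusted p = 0.0513), but its A pair, at -0.34, differed from B and C, at -1.20 and -1.36, and a second probe gave -0.26 after SM30 and -0.09 after AS30 at 3 h.

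E2F sites are a known feature of these promoters, and the letters of the E2F consensus were searched in the RefSeq promoters of build GRCh38.p14, from 250 bases before to 50 bases after each start. The words TTTCCCGC, TTTCGCGC, TTTGCCGC and TTTGGCGC were searched on both strands. A promoter was given for 37 of the 44 genes and not for CCND1, CCNE2, E2F8, MCM4, MCM5, RPA2 and RPA3. A word was present in 20 of these 37 genes (54.1%) and in 1090 of all 27305 genes with a promoter (3.99%), a property of how the list was composed and not of these arrays. The 20 genes with a word had a median ratio of -0.38 after SM30, -0.41 after AS30 at 3 h and -0.18 at 22 h, and the 17 without had -0.39, -0.46 and -0.24. Of the genes with a word 5 of 20 were called after SM30 and 1 of 20 after AS30 at 3 h, and of those without 2 of 17 and 2 of 17. Stretches of 80 bases upstream are shown for CDC25A, CDC7, UHRF1 and MCM3, which were called after SM30 and hold a word there, and for E2F1 and PCNA as well-known E2F-controlled genes, 5′ to 3′ on the gene's strand with the words in capitals, some of them as the reverse complement. The MCM3 stretch runs from 190 to 111 bases before the start and the others end at the base before it. They lie at chr3:48188418-48188497 (minus strand), chr1:91501032-91501111 (plus), chr19:4909421-4909500 (plus), chr6:52284853-52284932 (minus), chr20:33686386-33686465 (minus) and chr20:5126623-5126702 (minus).
CDC25A: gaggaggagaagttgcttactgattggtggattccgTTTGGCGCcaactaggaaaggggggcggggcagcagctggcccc
CDC7: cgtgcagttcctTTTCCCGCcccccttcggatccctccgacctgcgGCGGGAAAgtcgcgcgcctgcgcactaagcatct
UHRF1: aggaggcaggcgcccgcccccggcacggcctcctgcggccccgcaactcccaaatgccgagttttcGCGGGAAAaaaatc
MCM3: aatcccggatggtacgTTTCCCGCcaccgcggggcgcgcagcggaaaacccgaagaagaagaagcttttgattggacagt
E2F1: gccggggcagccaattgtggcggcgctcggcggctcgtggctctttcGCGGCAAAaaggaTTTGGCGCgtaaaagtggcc
PCNA: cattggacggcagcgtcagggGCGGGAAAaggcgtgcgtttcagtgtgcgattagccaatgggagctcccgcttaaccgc

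CDC7 and E2F1 each hold a pair of words in the stretch shown, and the other 4 genes 1 each. In CDC6 the word lies after the start, and the promoters of FEN1, MCM10 and PRIM1, which were called, hold none of the 4 words in this window. The array probes themselves lie elsewhere in these genes. On build hg18, that of the array files, the probe of CDC25A lies at chr3:48174128-48174187, that of CDC6 at chr17:35711325-35711384, that of CDC7 at chr1:91763635-91763694 and that of FEN1 at chr11:61320605-61320663.

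At the fork, PRIM1, the catalytic subunit of primase, was called after AS30 and FEN1 and RPA2 after SM30. PRIM1 read 11.15, 11.41 and 11.19 in the AS30 controls at 3 h and 10.52, 10.26 and 10.47 in the treated arrays, a ratio of -0.83 (SE 0.15, adjusted p = 0.034), or 1.78-fold lower, the largest fall among the 4 called genes. After SM30 its ratios were -0.77, -0.32 and -0.19, lower on every array (mean -0.42, SE 0.15, adjusted p = 0.13), and at 22 h they were -0.26, -0.09 and -0.14. FEN1, the nuclease that trims Okazaki fragments, read 11.04, 11.17 and 11.12 after SM30 against 11.74, 11.66 and 11.90, a ratio of -0.66 (SE 0.11, adjusted p = 0.0145), and both of its probes were called. Its AS30 ratios were -0.31, -0.58 and -0.23 at 3 h and -0.25, -0.15 and -0.26 at 22 h. RPA2, a subunit of the single-strand binding complex, read 11.64, 11.73 and 11.55 against 12.26, 12.30 and 12.30 (mean -0.65, SE 0.14, adjusted p = 0.0273) and had AS30 ratios of -0.41, -0.81 and -0.23 at 3 h. Of the other 2 subunits, RPA3 had SM30 ratios of -0.16, 0.25 and 0.19 and RPA1, measured in 2 of the 3 SM30 pairs, a mean of -0.34 (adjusted p = 0.31). Whether the subunits differed from each other was not tested.

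PCNA, the sliding clamp, was lower by less than its spread allowed to call. It read 14.50, 14.49 and 14.46 after SM30 against 14.83, 14.70 and 14.58, a ratio of -0.22 (SE 0.19, adjusted p = 0.50). After AS30 at 3 h it read 14.32, 13.69 and 14.10 against 14.74, 14.67 and 14.04, and the ratios of -0.42, -0.98 and 0.06 place the B pair far below 0 and the C pair above it (mean -0.45, SE 0.19, adjusted p = 0.19). At 22 h the ratios were -0.51, -0.15 and -0.03. Of the 5 RFC subunits that load the clamp, RFC2, RFC3 and RFC5 lay below 0 in all 3 SM30 pairs, with means of -0.45, -0.42 and -0.42, RFC4 had a mean of -0.26 with its B pair above 0, and RFC1 had a mean of 0.11. RFC2 came nearest to a call (adjusted p = 0.062). All 5 lay below 0 after AS30 at 3 h, from -0.55 to -0.30, with 0 called. The polymerase subunits POLA2, POLD1 and POLE2 had mean ratios of -0.43, -0.27 and -0.24 after SM30 and -0.40, -0.22 and -0.62 after AS30 at 3 h, with 0 called. POLE, which like CCNE2 was dim, had SM30 ratios of -0.06, 1.19 and -0.34 and 2 dim probes that gave -0.66 and 0.70 after AS30 at 3 h. Second probes of RFC1 and RFC3 also differed in sign from the probes used, at -0.06 for RFC1 after SM30 and 0.18 for RFC3 after AS30 at 3 h. LIG1, the ligase, stayed within 0.19 of 0 as a mean in all 3 exposures, at -0.18, -0.10 and -0.08.

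The 5 enzymes of deoxynucleotide supply had mean ratios from -0.45 (RRM1) to 0.05 (DUT) after SM30, and for 4 of them the lowest ratio of all 9 pairs was that of the A pair at 22 h. None of the 5 was called in any exposure. TYMS, thymidylate synthase, read 14.06, 14.02 and 14.06 after SM30 against 14.18, 14.29 and 14.29, a ratio of -0.21 (SE 0.20, adjusted p = 0.56). After AS30 at 3 h it read 13.89, 13.20 and 13.59 against 14.21, 14.13 and 13.58 (mean -0.41, SE 0.20, adjusted p = 0.23), with the C pair at 0.01. At 22 h TYMS read 13.09, 13.70 and 13.19 against 14.18, 13.98 and 13.83, every treated array below every control, and its ratio of -0.67 (SE 0.20, adjusted p = 0.095) had the lowest adjusted p of the 44 genes at that time. RRM2, the regulated subunit of ribonucleotide reductase, had ratios of -0.19, -0.38 and -0.45 after SM30 and -0.57, -0.73 and -0.18 after AS30 at 3 h. At 22 h RRM2 read 10.54, 11.58 and 11.06 against 12.18, 11.45 and 11.65. The mean of -0.70 (SE 0.28, adjusted p = 0.18) rests mostly on the A pair, at -1.64. A second RRM2 probe gave -0.31 at that time (adjusted p = 0.38). RRM1, TK1 and DUT had mean ratios of -0.45, -0.21 and 0.05 after SM30, -0.16, -0.32 and -0.34 after AS30 at 3 h and -0.33, -0.37 and -0.17 at 22 h. A second DUT probe gave -0.04 after SM30. In the A pair at 22 h the ratios of RRM1 and TK1 were -0.70 and -0.77, and in the B pair -0.02 and 0.07.

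Of the genes for chromatin and histone supply, UHRF1, which carries DNA methylation over to the new strand, was called after SM30 on the 2 pairs in which it was measured. The signal was 12.09 and 12.45 in the controls A and B and 11.10, 11.37 and 11.46 in the treated arrays, since control C was an outlier spot and left out. The ratio was -1.03 (SE 0.23, adjusted p = 0.0393) over the pairs A and B, and the second probe of UHRF1 was also called, at -0.85. After AS30 at 3 h the UHRF1 signal was 11.33, 11.22 and 11.39 against 11.54, 10.62 and 11.74, with a low control B, and the mean ratio was 0.01, with 0.016 on the second probe. CHAF1A and CHAF1B, subunits of the assembly factor that deposits histones behind the fork, had AS30 ratios of -0.36, -0.93 and -1.15 and -0.63, -0.79 and -0.40 at 3 h, just outside the threshold (adjusted p = 0.0508 and 0.059). Their SM30 means were -0.51 and -0.39, with the groups apart for both. SLBP, which binds the stem-loop of histone mRNAs, read 12.79, 12.82 and 12.82 after SM30 against 12.95, 13.05 and 13.17, a ratio of -0.24 (SE 0.15, adjusted p = 0.35). Its AS30 ratios were -0.44, -0.92 and -0.16 at 3 h and -0.14, 0.18 and 0.08 at 22 h.

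The 2 NPs were compared at 3 h as the difference between their responses, each taken over its own controls. Of the 44 genes 0 were called in that comparison, as were 0.014% of all probes, and limma gave 2 members lower and 0 higher at an unadjusted p under 0.05, where 8.82% of all probes were lower, so that the members had no more such genes than the array as a whole. The difference of SM30 minus AS30 had a median of 0.057 over the members, with 20 of 44 below 0. The 2 genes were UHRF1, whose ratio was lower after SM30 by 1.04 (95% interval -1.73 to -0.35, adjusted p = 0.25), and CDC25A, lower by 0.51 (-0.96 to -0.06, adjusted p = 0.30). For the genes called after both NPs the difference was -0.06 for CDC6 (-0.47 to 0.34) and 0.07 for MCM10 (-0.36 to 0.50). For PRIM1, called after AS30, it was 0.41 (-0.07 to 0.89, adjusted p = 0.41). The intervals leave room for differences of a sizeable part of a log2 unit in either direction, so the responses of these genes were not shown to be equal. The arrays of the 2 NPs lay on different slides. A fit with slide as a fixed block rests for SM30 on array A beside its own controls. For AS30 it rests on the 22 h controls that shared slides with the AS30 arrays. Its median difference was -0.17, with 34 of the 44 genes below 0 and 0 called, where 26 of 25091 probes were.

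**Figure D4:**
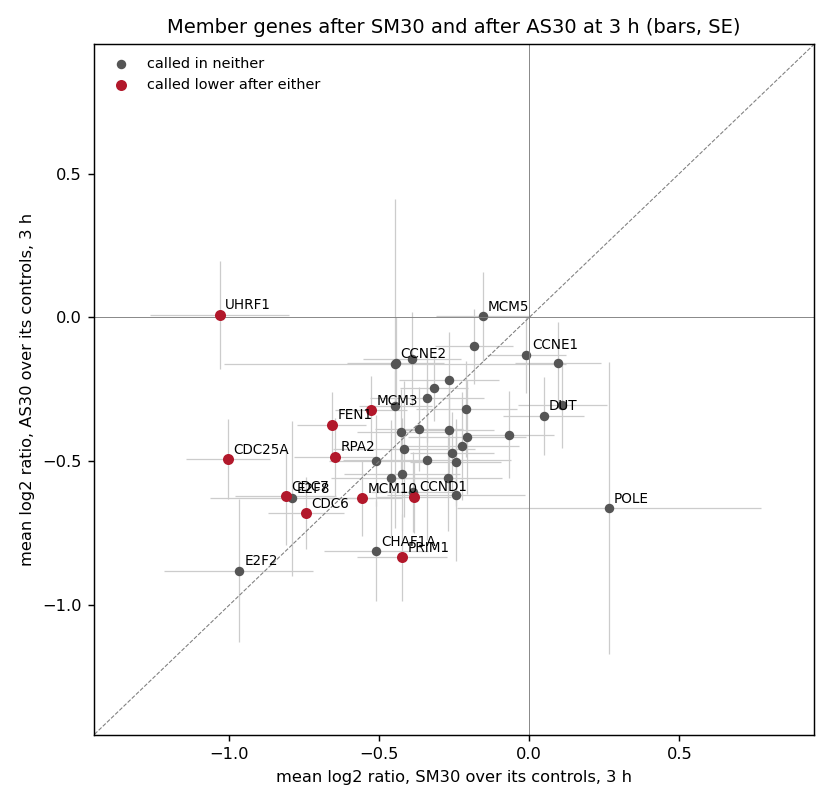
Mean log2 ratio over own controls after SM30 (horizontal) and after AS30 (vertical) at 3 h for the 44 genes, with SE bars and the line of equality, the 10 genes called lower after either in red. Most points lie below 0 on both axes, CDC6 and MCM10 close to the line, and UHRF1 at -1.03 after SM30 and 0.01 after AS30.

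For AS30, the responses after 3 h and 22 h of recovery were compared. The ratio was higher, that is less negative, at 22 h for 34 of the 44 genes, with a median difference of 0.18, and 0 were called, as were 0.0285% of all probes. The median depended on single pairs, at 0.055 without pair B at 3 h, 0.074 without pair B at 22 h, 0.31 without pair C at 3 h and 0.29 without pair A at 22 h, and it was 0.079 with slide as a fixed block. Limma gave 7 members higher at an unadjusted p under 0.05 and 0 lower, against 7.94% and 8.92% of all probes. The 7 were PRIM1 at 0.67 (95% interval 0.19 to 1.15), CDC6 at 0.65 (0.24 to 1.05, adjusted p = 0.17), CHAF1A at 0.57, SLBP at 0.54, CDC25A at 0.51, CCNE1 at 0.44 and CCND1 at 0.41. The difference for TYMS was -0.26 (-0.89 to 0.38) and for RRM2 -0.21 (-1.11 to 0.69), but a second RRM2 probe gave 0.15. The untreated AS30 controls at 22 h differed little from those at 3 h in these genes, with a median of 0.056 over the members, 18 below 0, and 0 called where 1.3% of all probes were, with 2 members higher at an unadjusted p under 0.05, against 7.81% of all probes. On the slide that held arrays of both, control A at 22 h lay below the mean of the 3 controls at 3 h for 7 of the 44 genes, with a median of 0.15.

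Single arrays weighed on the AS30 values. AS30 control C at 3 h, with 52.4% of its spots well above background against 61.7% and 61.9% for controls A and B, was the lowest of its group for 31 of the 44 genes, among them PCNA, TYMS and E2F8, and the C pair had the smallest median shift of the 3. Treated array B was the lowest of its group for 42 genes, and the B pair had the largest shift. Leaving out the C pair raised the number of genes called after AS30 at 3 h from 4 to 13, and leaving out the A or the B pair lowered it to 0. Calls over all probes moved likewise, from 720 of 28596 to 3060 of 28520 without C, and to 202 of 28204 and 81 of 28447 without A and B. At 22 h treated array A was the lowest of its group for 29 genes and control A the highest of its own for 27, while treated array B was the highest for 37. Of the 22 h controls, A and B had 52.4% and 51.9% of their spots well above background and C 58.4%. The part of array quality in these ratios was not tested. After SM30, the number called dropped from 8 to 1, CDC25A, without any 1 of its pairs, while 38 to 41 of the ratios stayed below 0. Over all probes the calls dropped from 2146 to 567, 289 and 298 without A, B and C.

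Other genes of the same pathway, outside the list, were examined in the same fits. Of 62 other genes of the pathway measured, 7 were called lower and 2 higher after SM30, where 3.13% and 4.35% of all probes were. The counts were 2 and 1 after AS30 at 3 h, against 1.01% and 1.5%, and 1 and 1 at 22 h, against 1.04% and 2.54%, so the rises were near or below the background share in each exposure. The medians over the 62 genes were -0.19, -0.23 and -0.20. CDKN1A, which encodes p21, read 12.93, 13.07 and 12.86 after SM30 against 11.71, 11.59 and 11.53, higher in every array, at 1.35 (SE 0.11, adjusted p = 0.001), or 2.54-fold. After AS30 it read 13.36, 13.16 and 13.28 against 12.64, 12.35 and 12.53 at 3 h (mean 0.76, SE 0.11, adjusted p = 0.0184) and 12.56, 12.37 and 12.36 against 11.88, 12.01 and 11.96 at 22 h, where it was not called (mean 0.48, SE 0.11, adjusted p = 0.0545). The CDKN1A signal of the AS30 controls was itself lower at 22 h than at 3 h, by 0.56 (adjusted p = 0.0226), while the SM30 controls at 3 h read lower than all 3 AS30 controls at 22 h. CDKN1C, p57, another inhibitor, was called higher after SM30 (mean 0.98, SE 0.14, adjusted p = 0.0073) and after AS30 at 22 h (mean 1.16, SE 0.14, adjusted p = 0.0171), and its ratio at 3 h after AS30 was 0.63 (SE 0.14, adjusted p = 0.0548). CDKN2C, p18, an inhibitor of the cyclin D kinases, was lower after SM30, at -1.16 (SE 0.22, adjusted p = 0.0206).

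CCND3, cyclin D3, was the one other pathway gene called lower in all 3 exposures, with ratios of -0.77, -0.74 and -0.97 after SM30, -0.97, -0.83 and -0.62 after AS30 at 3 h and -0.87, -0.36 and -1.003 at 22 h. SKP2, which marks p27 for degradation, and E2F5 were called lower after SM30, at -0.91 and -0.66. ORC1, the subunit of the origin recognition complex that cycles with S phase, was called lower at 3 h after SM30 (mean -0.61, SE 0.13, adjusted p = 0.0265) and after AS30 (mean -0.60, SE 0.13, adjusted p = 0.0495), and its ratio at 22 h was -0.14. ORC5 and CTPS1, the enzyme of CTP synthesis, were called after SM30, at -0.60 and -1.05. Of the 28 other genes of origin recognition, helicase activation and the fork, 20 lay below 0 after SM30, 23 after AS30 at 3 h and 24 at 22 h.

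**Figure D5:**
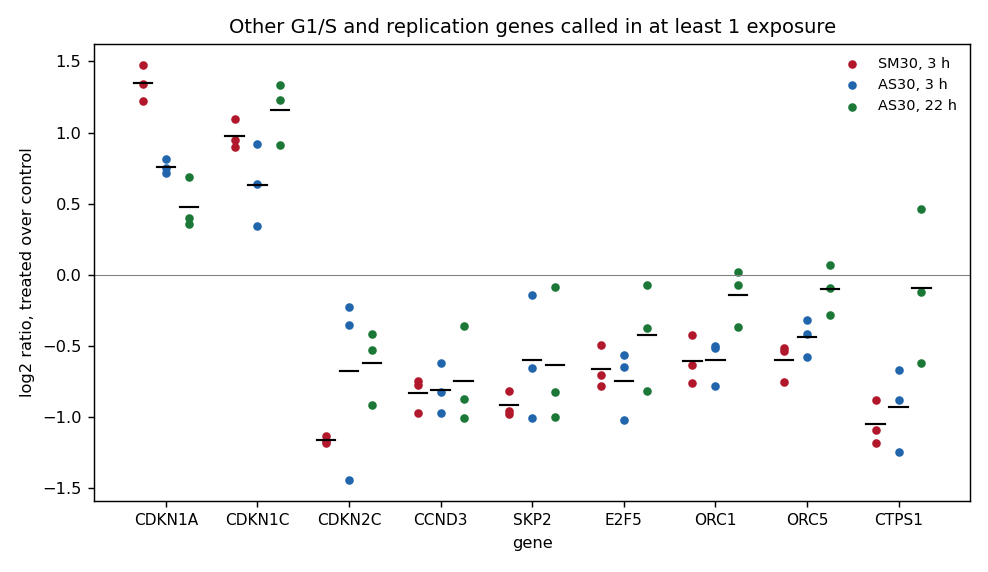
Log2 ratio of treated over control cells in each pair (points) and their mean (bar) for the 9 other pathway genes called in at least 1 exposure. CDKN1A and CDKN1C lie above 0 in all 9 pairs and CCND3 below 0 in all 9, while ORC1 lies below 0 in all 6 pairs at 3 h.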

How the data were processed

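RNA of the 18 A549 cultures was extracted with TRIzol, labelled with 1 dye and hybridised to Agilent whole-genome arrays, and the authors read the scans with Feature Extraction 10.5.1.1. The deposited scanner files give a processed, background-corrected intensity for each of 43376 non-control spots. The log2 values of all these spots were quantile normalized. Spots not positive and significant or marked as outliers were then set to missing, replicate spots were averaged and probes missing on more than 0.33 of the arrays were removed, leaving 28665 of 41000. Treated signals were taken over those of the control with the same letter, following the study's methods, and the 9 log2 ratios were fitted as 3 classes in limma 3.58.1 (R 4.3.3, with statmod 1.5.0 and version 1.17.8 of data.table), with Benjamini-Hochberg adjustment over all probes and a threshold of 0.05. The AS30 controls were compared in a limma fit of the 18 arrays as 6 groups. The number of arrays, 3 a group, limits the precision, and the labels call the replicates biological without saying more of their cultures.

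The deposited matrix of array values, whose columns followed the scanner values closely, with medians between 8.73 and 9.18 on the log2 scale, served as an alternative, and 0 of its columns were left out. It holds normalized intensities of single arrays, not ratios, and these were log2 transformed before use.

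A gene was represented by its brightest kept probe. Given array by array were up to 6 genes with the largest called rises and falls in each exposure that had all 3 pairs, together with MCM2, MCM5, CDC6, CDT1, GMNN, PCNA, RRM2, TYMS, E2F1, CCND1, CCNE1, CCNE2, CDC25A and SLBP. Of 78 other pathway names, 62 were measured, and those called and CDKN1A are named. The members, lists and alternatives were chosen with earlier results of these data known. Scaling, background correction, filters, probes, pairing, slide and the deposited table were varied, and each pair was left out. The fits were tested on simulated data. Promoters are RefSeq's, build GRCh38.p14, and probe positions are those of the array files, build hg18.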

Additional observations from a re-analysis of the deposited data

How the results depend on the processing

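No result for a member changed direction while past the threshold, among 3960 alternative values of 220 member results, of which 80 lost a call and 50 gained one. Only the 12 called results had a call to lose, each under 9 alternatives and 9 left-out pairs, so the 80 are to be read against those values and not against 3960. The 12 calls in the 3 exposures against controls were all lost with slide as a fixed block. There 0 genes were called after SM30 and 0 after AS30 at 3 h. Calls fell over the whole array too, from 2146 of 28664 probes to 333 of 28598 after SM30. After AS30 at 3 h they fell from 720 of 28596 to 52 of 25136. With slide as a random block (estimated correlation -0.0837) 20 genes were called after AS30 at 3 h and 1 at 22 h. Over all probes that fit called 3931 of 28618 and 1922 of 28223, in either direction. The main fit called 720 of 28596 and 1008 of 28155, so calls rose over the whole array and not only among the members. Normexp background correction gave 13 genes after SM30, with 2276 of 28664 probes called over the whole array, against 2146 of 28664 in the main fit. With all spots kept and no filter, 5 genes were called after SM30 and 0 after AS30 at 3 h. Of all 41000 probes, 1240 and 256 were called there. In the fit with no replicate block, which ignores the pairing by letter, 10 genes were called after SM30, 7 after AS30 at 3 h and 0 at 22 h, with medians of -0.39, -0.43 and -0.22. That fit called 2518 of 28665, 1313 of 28618 and 1408 of 28223 probes over the whole array. By the deviations from the group means, same-letter arrays all correlated more than different-letter arrays only in AS30 at 22 h. There same letters gave 0.10 to 0.19 (3 pairs) and different letters -0.24 to 0.072 (6 pairs). Such deviations sum to 0 within a group of 3, so these values do not settle whether the letters pair the arrays. The same-letter and different-letter ranges overlapped after SM30, at -0.013 to 0.088 against -0.068 to 0.047, and after AS30 at 3 h, at -0.091 to 0.48 against -0.47 to 0.37. With a replicate block the control comparison again called 0 genes, where 301 of 28179 probes were called, with a median of 0.056 over the members.

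Leaving out 1 pair at a time, 1 to 11 genes were called after SM30, 0 to 13 after AS30 at 3 h, 0 at 22 h and 0 to 1 between the controls. Over all probes these fits called 289 to 2721, 81 to 3060, 2 to 1364 and 156 to 1165, in the same order. Since the 3 exposures share 1 estimate of the spread, pairs of another exposure counted too. After SM30 1 gene was called without SM30 pair A, B or C, and 5 without AS30 pair A at 3 h or pair C at 22 h. After AS30 at 3 h 0 genes were called without its own pair A or B, SM30 pair B or C or AS30 pair C at 22 h, 1 without SM30 pair A, 2 without pair B at 22 h, and 13 without its own pair C. CDC25A after SM30 was called in all 9 of these fits, CDC6 in 6 after SM30 and 3 after AS30, PRIM1 in 4, and MCM10 in 2 and 1.

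The medians of the members stayed below 0 in every exposure and setting, between -0.42 and -0.33 after SM30, -0.59 and -0.24 after AS30 at 3 h and -0.26 and -0.12 at 22 h. The median difference between the NPs changed sign, from 0.057 to -0.17 with slide as a fixed block and to -0.095 without 1 of the pairs, within the spread of the pairs. With 3 arrays a group, small differences in a single gene were not resolved, least of all for the dim probes of CCNE2 and POLE.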
